A study of Mus musculus with 24 samples.

Results

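Galectin-1, galectin-3, galectin-8 and galectin-9 are lectins that gather on damaged lysosomes, and galectin-3-binding protein is a secreted glycoprotein that galectin-3 binds. Their genes Lgals1 (ENSMUSG00000068220), Lgals3 (ENSMUSG00000050335), Lgals8 (ENSMUSG00000057554), Lgals9 (ENSMUSG00000001123) and Lgals3bp (ENSMUSG00000033880) were taken by symbol from the count table, where they are 5 of 56980 genes. All 5 passed the filter on low counts, which kept 12648 genes for testing.

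The RNA came from microglia, the macrophages of the brain, of newborn WT mice (postnatal days 1 to 3), cultured as mixed glia of cortex and hippocampus and then shaken loose. The cultures received bafilomycin A1 (BafA1) at 50 nM for 1, 7, 14 or 22 h, or DMSO, the vehicle, for the same times. BafA1 blocks the V-ATPase, the proton pump that keeps lysosomes acidic. Each of the 8 groups had 3 biological replicates, 24 libraries in all. A neonatal culture shaken from mixed glia can carry other glia with it, and the litters and flasks behind the replicates were not given. P-values therefore measure the spread between these samples.

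Galectins are made in the cytosol and bind β-galactosides, the sugars that decorate the inner face of the lysosome. When a lysosomal membrane breaks, those sugars meet the cytosol, galectins bind them within minutes, and the clustered protein marks the organelle for repair or for removal by autophagy. In microglia galectin-3 is also known from activated and phagocytic cells. Only RNA was measured here, so neither membrane damage nor the position of any galectin in the cell was recorded.

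The galectin genes did not move as a block. Lgals3 rose 3.32-fold at 7 h, 7.45-fold at 14 h and 11.2-fold at 22 h of BafA1 over DMSO. Lgals1 and Lgals3bp rose by less than 1 on the log2 scale at 14 and 22 h, Lgals9 fell at 22 h, and Lgals8 was called at no time. In bulk RNA fewer cells of a type and less RNA per cell cannot be told apart. At 22 h the summed level of 15 microglial markers was 3650 to 5020 CPM with BafA1 and 7070 to 10300 CPM in DMSO, and its part in the galectin changes was not tested. A call means an adjusted p below 0.05 in edgeR's quasi-likelihood test. Levels are in CPM, counts scaled to a common library size with TMM factors, as mean ± SD with n = 3. Changes are log2 of BafA1 over DMSO, with their standard error (SE) from the model.

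**Figure D1:**
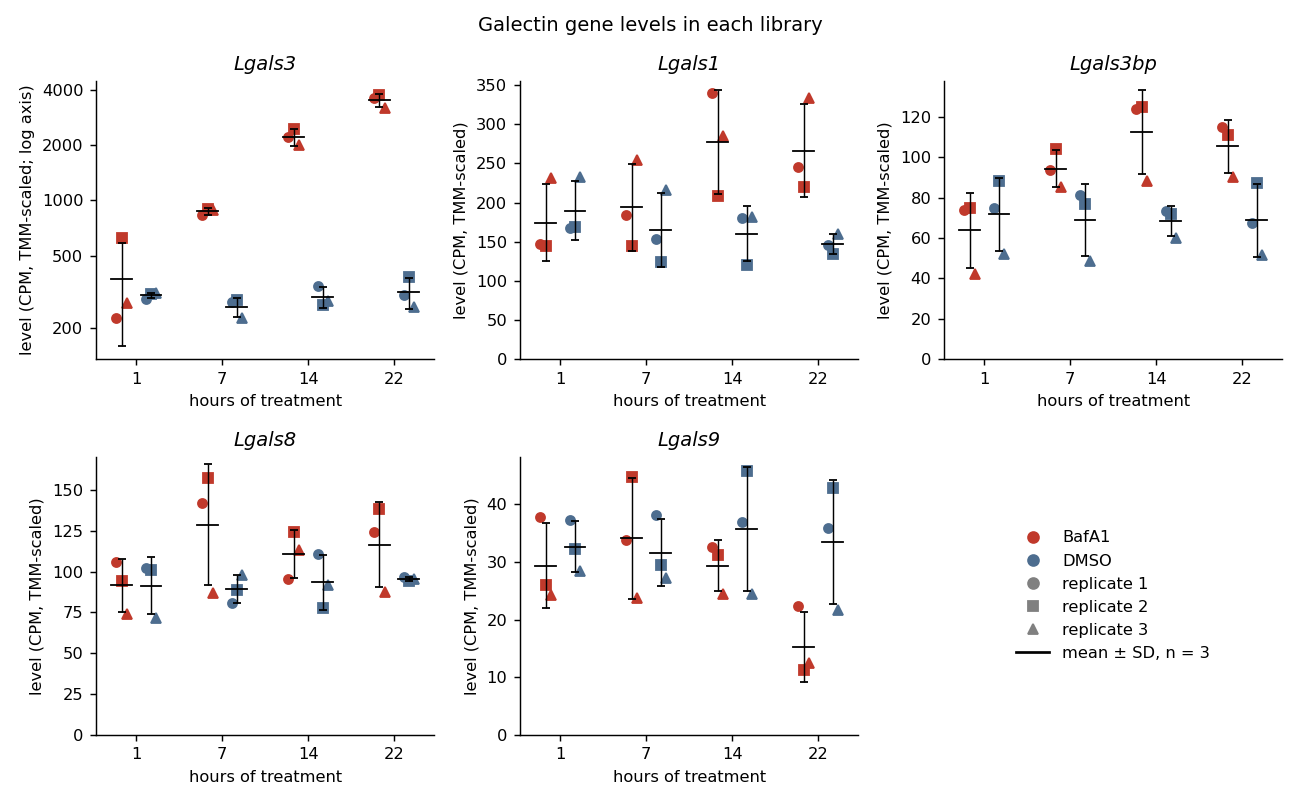
Level of each galectin gene (CPM) in each library by hours of treatment, BafA1 in red and DMSO in blue, with the mean and SD of 3 replicates. The Lgals3 axis is a log axis and the others start at 0. Lgals3 climbs to 3210 to 3770 CPM at 22 h of BafA1, while the 12 DMSO libraries stay between 227 and 382 CPM.

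The first of the galectins that read out lysosomal damage is galectin-3, which has a single sugar-binding domain on a long flexible tail and, in human cells, recruits the ESCRT adaptor ALIX and the ubiquitin ligase TRIM16 to broken lysosomes. After 1 h of BafA1, Lgals3 stood at 228, 621 and 274 CPM in replicates 1, 2 and 3, against 291, 307 and 311 CPM in DMSO. Replicate 2 of BafA1 lay above all DMSO libraries and the other 2 lay below them, so the groups overlapped. The log2 change was 0.29 ± 0.23 (adjusted p = 1), and without BafA1 1 h replicate 2 it was -0.29. No gene of those tested was called at 1 h (0%; 380 genes at an unadjusted p under 0.05). DESeq2, limma-voom, RLE scaling and a fit of the 6 libraries of that time also called 0 genes, and testing without a filter on low counts called 26.

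At 7 h Lgals3 reached 833, 903 and 886 CPM with BafA1, against 278, 285 and 227 CPM in DMSO. Every BafA1 library was above every DMSO library, as for 11.6% of tested genes, and the replicates of BafA1 lay close together. The log2 change was 1.73 ± 0.23 (adjusted p = 1.29e-05), the 141st largest of 12648 genes. In the same comparison 903 genes were called (7.14%; 573 without DMSO 7 h replicate 1, and 1555 blocked on replicate number).

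At 14 h Lgals3 stood at 2210, 2460 and 2000 CPM with BafA1, against 343, 270 and 282 CPM in DMSO, a log2 change of 2.90 ± 0.24 (adjusted p = 1.94e-09). At 22 h it stood at 3640, 3770 and 3210 CPM with BafA1, against 303, 382 and 262 CPM in DMSO, a log2 change of 3.49 ± 0.25 (adjusted p = 4.89e-11). The groups stood far apart at both times. Every BafA1 library was above every DMSO library for 20.4% of tested genes at 14 h and 23.5% at 22 h. By log2 change Lgals3 ranked 31st of all tested genes at 14 h and 25th at 22 h. Calls were common by then, at 24.1% of genes at 14 h and 39.9% at 22 h. At 22 h Lgals3 took 0.31% to 0.338% of all counts with BafA1 and 0.0297% to 0.0369% in DMSO.

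The 8 groups fell into a clear order for Lgals3. BafA1 at 22 h (3540 ± 292 CPM), 14 h (2220 ± 227 CPM) and 7 h (874 ± 36.6 CPM) came first, each clear of the next. BafA1 at 1 h (374 ± 215 CPM) and the 4 DMSO groups, with means of 263 to 316 CPM, followed, and each of these overlapped its neighbour. Within pairs of equal replicate number, BafA1 exceeded DMSO 3 to 3.9 times at 7 h, 6.44 to 9.09 times at 14 h and 9.85 to 12.3 times at 22 h, in 3 of 3 pairs each time. At 1 h it was higher in 1 of 3 pairs.

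The BafA1 effect on Lgals3 changed with time. The F test of treatment by time gave F = 37 (adjusted p = 3.16e-07), the 111th smallest p, in a test that called 21.2% of genes. The effect at 7 h exceeded that at 1 h by 1.44 ± 0.32 on the log2 scale (adjusted p = 0.014), a step at which 2.23% of genes were called. From 7 to 14 h the difference was 1.17 ± 0.32 (adjusted p = 0.0532; 0.00491 blocked on replicate number), where 2.26% of genes were called. It passed with limma-voom (adjusted p = 0.0361), with DMSO 7 h replicate 3 left out (0.0434) and with BafA1 14 h replicate 3 left out (0.0453). From 14 to 22 h the difference was 0.59 ± 0.32 (adjusted p = 0.419), where 1.98% of genes were called.

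**Figure D2:**
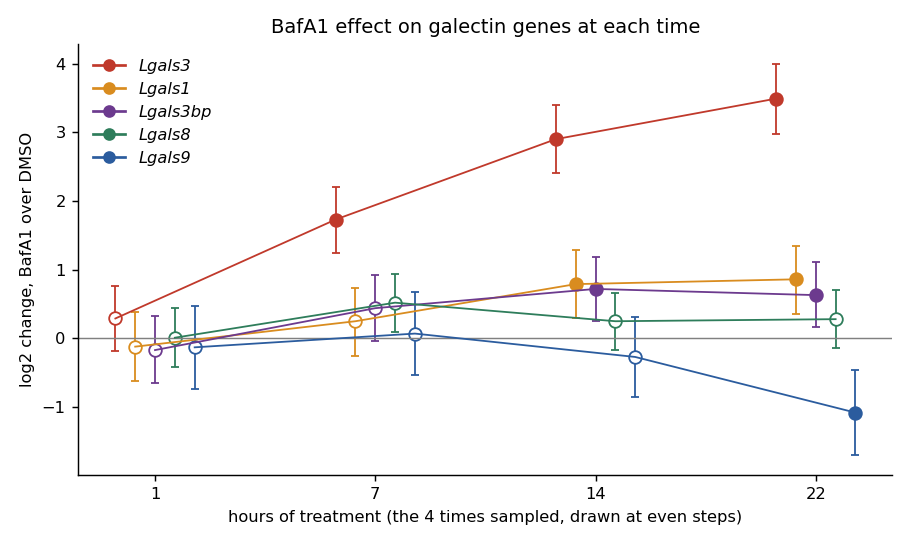
Log2 change of each galectin gene, BafA1 over DMSO, at the 4 times. Bars are 95% confidence intervals, filled points passed an adjusted p under 0.05 and open points did not. Lgals3 parts from the other 4 genes at 7 h, and Lgals9 alone lies below 0 by 1.08 at 22 h.

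The promoters of Lgals3, with the largest rise of the 5 genes, and Lgals9, the gene that fell, are shown because these genes moved in opposite directions at 22 h. Both are from RefSeq on build GRCm38.p6 and run from 250 bases before to 50 bases after the annotated start of the gene, in the gene's own direction. Capitals mark matches to any of 5 motifs, which were chosen after the values were seen.
Lgals3, chr14:47373610-47373909, plus strand: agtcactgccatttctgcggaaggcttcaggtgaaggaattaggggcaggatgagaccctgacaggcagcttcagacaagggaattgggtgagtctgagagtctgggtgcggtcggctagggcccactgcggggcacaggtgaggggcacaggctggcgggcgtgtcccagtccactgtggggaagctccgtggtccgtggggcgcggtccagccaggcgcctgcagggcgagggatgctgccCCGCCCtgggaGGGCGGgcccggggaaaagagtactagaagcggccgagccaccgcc
Lgals9, chr11:78984875-78985174, minus strand: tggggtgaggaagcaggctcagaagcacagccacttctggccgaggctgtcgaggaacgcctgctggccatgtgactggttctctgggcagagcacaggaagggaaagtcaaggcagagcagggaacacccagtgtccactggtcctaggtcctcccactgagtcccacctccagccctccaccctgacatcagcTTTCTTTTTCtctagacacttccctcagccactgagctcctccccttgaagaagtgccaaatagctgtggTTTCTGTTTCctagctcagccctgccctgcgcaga

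The motifs, searched on both strands, were the E-box CACGTG, in 7.15% of 32851 promoters of the same length, the interferon response element core (GAAA, any 2 bases, GAAA) in 3.44%, the antioxidant response element core TGACNNNGC in 12.4%, the AP-1 site TGANTCA in 7.81% and the GC box GGGCGG in 35.7%. The Lgals3 promoter held the GC box once on each strand, beginning 7 bases before the start and at base 5 after it. The Lgals9 promoter held the interferon response element core in 2 places, on the opposite strand, as TTTCTTTTTC beginning 55 bases before the start and as TTTCTGTTTC at base 16 after it. The promoters of Lgals3bp and Lgals8 held none of the 5 motifs, and no match overlapped another. RefSeq promoters were matched for 4 of the 5 genes. A match describes letters only, and no match says only that these letters are not in this window.

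Galectin-8, with sugar-binding domains in tandem, restrains mTORC1 at damaged lysosomes and, in human cells, draws the autophagy receptor NDP52 to ruptured vacuoles. At 7 h Lgals8 stood at 142, 157 and 86.7 CPM with BafA1, against 81, 88.6 and 97.9 CPM in DMSO. Replicates 1 and 2 of BafA1 lay above all DMSO libraries and replicate 3 lay among them. The log2 change was 0.52 ± 0.20 (adjusted p = 0.145). Without BafA1 7 h replicate 3 it was 0.73 (adjusted p = 0.0273).

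At 1 h Lgals8 stood at 106, 94.5 and 74.2 CPM with BafA1, against 102, 101 and 71.3 CPM in DMSO, a log2 change of 0.01 ± 0.21. At 14 h it stood at 95.2, 124 and 113 CPM with BafA1, against 111, 77.5 and 91.7 CPM in DMSO (log2 change 0.25 ± 0.20, adjusted p = 0.401). At 22 h it stood at 124, 138 and 87.3 CPM with BafA1, against 96.4, 94.2 and 95.3 CPM in DMSO (0.28 ± 0.20, adjusted p = 0.278). The groups overlapped at each of these times, and at every time 2 of 3 replicate pairs were higher with BafA1. The interval of the 22 h difference ran from -0.14 to 0.70, which holds both no change and a rise of 0.70. In the order of the 8 groups, from BafA1 at 7 h (129 ± 37 CPM) down to DMSO at 7 h (89.2 ± 8.47 CPM), every neighbour overlapped the next. The effect on Lgals8 did not pass the test of treatment by time (F = 1.02, adjusted p = 0.57).

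Galectin-9, the other tandem-repeat member, activates AMPK at damaged lysosomes, and outside the cell binds the receptor Tim-3. Its gene is known to respond to interferons in several cell types. At 22 h Lgals9 stood at 22.3, 11.2 and 12.4 CPM with BafA1, against 35.9, 42.8 and 21.7 CPM in DMSO. The highest BafA1 library passed the lowest DMSO library by a small margin, so the groups overlapped, but BafA1 was lower in 3 of 3 replicate pairs, at 0.262 to 0.622 times DMSO. The log2 change was -1.08 ± 0.30 (2.12-fold lower; adjusted p = 0.00561), at a time when 22% of genes were called lower. These levels rest on 87, 28 and 41 counts with BafA1 and 112, 55 and 49 counts in DMSO. The call held under each of 15 alternative settings, left-out libraries included, with changes of -1.47 to -0.90.

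Before 22 h Lgals9 was not called. At 1 h it stood at 37.9, 26.1 and 24.2 CPM with BafA1, against 37.3, 32.3 and 28.4 CPM in DMSO (log2 change -0.13 ± 0.29). At 7 h it stood at 33.8, 44.8 and 23.7 CPM with BafA1, against 38.2, 29.5 and 27.2 CPM in DMSO (0.07 ± 0.29). At 14 h it stood at 32.6, 31.2 and 24.4 CPM with BafA1, against 36.9, 45.8 and 24.5 CPM in DMSO (-0.27 ± 0.28). The groups overlapped at 1 and 7 h. At 14 h each BafA1 library lay below its DMSO partner, though the ranges overlapped. The step from 14 to 22 h was -0.81 ± 0.41 (adjusted p = 0.386), and the test of treatment by time gave F = 2.88 (adjusted p = 0.161; F = 5.2 and adjusted p = 0.022 blocked on replicate number, and adjusted p = 0.0496 with BafA1 22 h replicate 1 left out). Among the 8 groups BafA1 at 22 h (15.3 ± 6.09 CPM) was the lowest and clear of BafA1 at 14 h (29.4 ± 4.40 CPM), while all the groups above overlapped their neighbours.

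Galectin-1 is a small dimeric galectin, abundant in glia and macrophages and also secreted. At 14 h Lgals1 stood at 340, 208 and 285 CPM with BafA1, against 180, 120 and 181 CPM in DMSO. At 22 h it stood at 246, 220 and 333 CPM with BafA1, against 146, 134 and 160 CPM in DMSO. At both times the lowest BafA1 library was above the highest DMSO library, as it was for 20.4% of tested genes at 14 h and 23.5% at 22 h. The log2 change was 0.79 ± 0.24 at 14 h (adjusted p = 0.0167) and 0.86 ± 0.24 at 22 h (adjusted p = 0.00625). The 14 h change was 0.80 ± 0.13 when blocked on replicate number, and was called. Without the block, the 14 h call was lost with DMSO 14 h replicate 2 left out (adjusted p = 0.105). It was also lost with BafA1 14 h replicate 1 left out (0.0953) and with scaling by library totals alone (0.0623). The 22 h call held under all 15 alternatives.

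At 1 h Lgals1 stood at 147, 145 and 231 CPM with BafA1, against 167, 169 and 233 CPM in DMSO (log2 change -0.12 ± 0.24). At 7 h it stood at 184, 144 and 254 CPM with BafA1, against 154, 124 and 216 CPM in DMSO (0.25 ± 0.24, adjusted p = 0.668). Replicate 3 was the highest library in all 4 of these groups, and the groups overlapped. Within pairs, BafA1 was 1.16 to 1.19 times DMSO at 7 h, 1.58 to 1.89 times at 14 h and 1.64 to 2.08 times at 22 h, higher in 3 of 3 pairs at each of these times and in 0 of 3 at 1 h. The test of treatment by time gave F = 3.73 (adjusted p = 0.0908; F = 12 and adjusted p = 0.000309 blocked on replicate number). It also passed with BafA1 1 h replicate 3 left out (adjusted p = 0.0287) and with BafA1 7 h replicate 3 left out (0.0386). In the order of the 8 groups, from BafA1 at 14 h (278 ± 66.6 CPM) to DMSO at 22 h (147 ± 13.1 CPM), each group overlapped the next.

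Lgals3bp encodes the heavily glycosylated partner of galectin-3, a protein of the scavenger receptor family that is found outside the cell and on its matrix. At 7 h it stood at 93.9, 104 and 85.5 CPM with BafA1, against 81.6, 76.9 and 48.7 CPM in DMSO. All BafA1 libraries lay above all DMSO libraries, as for 11.6% of genes at this time. The log2 change of 0.44 ± 0.23 was not called (adjusted p = 0.32), and blocked on replicate number it was 0.47 ± 0.13 (adjusted p = 0.0174). In the blocked fit, the effect at 7 h also exceeded that at 1 h by 0.64 (adjusted p = 0.0462; 0.61 ± 0.33 and adjusted p = 0.497 without it).

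At 14 h Lgals3bp stood at 124, 125 and 88.4 CPM with BafA1, against 73.3, 72.1 and 60.1 CPM in DMSO (log2 change 0.72 ± 0.23, adjusted p = 0.0213). At 22 h it stood at 115, 111 and 90.3 CPM with BafA1, against 67.6, 87.2 and 51.4 CPM in DMSO (0.63 ± 0.23, adjusted p = 0.0301). At neither time did the groups overlap, as for 20.4% of tested genes higher at 14 h and 23.5% at 22 h. Replicate 3 was the lowest library of each group. Blocked on replicate number, the changes were 0.70 ± 0.13 at 14 h (adjusted p = 9.8e-05) and 0.65 ± 0.13 at 22 h (adjusted p = 0.000195). Without the block, both calls depended on single libraries. At 14 h the adjusted p was 0.0766 with DMSO 14 h replicate 3 left out, 0.0739 with BafA1 14 h replicate 1 left out and 0.09 with BafA1 14 h replicate 2 left out. At 22 h it was 0.117, 0.0959 and 0.0731 with DMSO 22 h replicate 3, BafA1 22 h replicate 1 and BafA1 22 h replicate 2 left out in turn, and 0.0533 with library totals alone.

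At 1 h Lgals3bp stood at 74.1, 75.1 and 42.3 CPM with BafA1, against 74.9, 88.1 and 52.3 CPM in DMSO (log2 change -0.17 ± 0.24), and the groups overlapped. BafA1 was lower in 3 of 3 pairs at 1 h and higher in 3 of 3 pairs at each later time. The test of treatment by time gave F = 2.93 (adjusted p = 0.155; F = 8.69 and adjusted p = 0.00209 blocked on replicate number). The BafA1 groups at 7, 14 and 22 h had means of 94.5, 113 and 105 CPM and came ahead of all DMSO groups, with every neighbour in the order overlapping the next.

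As a count, 0 of the 5 genes were called at 1 h, 1 at 7 h, 3 at 14 h and 4 at 22 h, where 3 were higher and 1 was lower. Over all tested genes the shares called were 0%, 7.14%, 24.1% and 39.9% at these times. Blocked on replicate number, the count at 7 h was 2. The median log2 change of the 5 was -0.12, 0.44, 0.72 and 0.63 at 1, 7, 14 and 22 h, against 0.02, -0.02, -0.05 and -0.06 over all tested genes. Scaling by library totals alone moved the median of all genes to -0.13 at 14 h and -0.23 at 22 h. None of the 5 genes was called in DMSO at 7, 14 or 22 h against DMSO at 1 h, comparisons that share the 1 h libraries and in which 0.00791%, 0.15% and 0.403% of all genes were called. The changes there ran from -0.37 (Lgals1 at 22 h) to 0.12 (Lgals9 at 14 h).

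Across the 24 libraries, as a description on log2 CPM values that share library and depth, Lgals3 followed Lgals3bp with Pearson's r = 0.76 and Lgals1 with r = 0.65, and ran against Lgals9 with r = -0.55. Lgals8 followed Lgals3bp with r = 0.61 and Lgals3 with r = 0.5, and Lgals1 ran against Lgals9 with r = -0.6. Lgals1 and Lgals8 had r = 0, Lgals3bp and Lgals9 r = -0.03, Lgals8 and Lgals9 r = -0.02, and Lgals1 and Lgals3bp r = 0.21. The genes most like Lgals3 were Rnh1, the ribonuclease inhibitor (r = 0.986), Cstb, a cystatin that inhibits cathepsins (0.984), and Samd8 (0.982). Nearest to Lgals1 were Mrps18b, a mitochondrial ribosomal protein (0.889), the annexin Anxa2 (0.865) and Rae1 (0.864). Lgals3bp was closest to the iron exporter Slc40a1 (0.911), the TGF-β receptor Tgfbr1 (0.904) and the lysosomal carboxypeptidase Ctsa (0.902). For Lgals9 these were the leukotriene receptor Cysltr1 (0.914), Clasp2 (0.873) and the Src family kinase Lyn (0.868). Lgals8 had no neighbour as close, with Tex2 at 0.766, Gm49759 at 0.745 and Arhgap25 at 0.744.

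Of 7 other galectin-like genes, Lgalsl, which encodes a galectin-related protein thought not to bind lactose, was the one with enough counts to test. At 14 h it stood at 4.76, 3.80 and 5.90 CPM with BafA1, against 12.6, 14.2 and 18.8 CPM in DMSO (log2 change -1.66 ± 0.32, adjusted p = 0.000412). At 22 h it stood at 3.34, 5.21 and 4.24 CPM with BafA1, against 10.6, 7.79 and 12.4 CPM in DMSO (-1.31 ± 0.35, adjusted p = 0.00403). The groups did not overlap at either time, as for 22.5% of genes lower at 14 h and 24.8% at 22 h. Lgals2, Lgals4, Lgals7, Lgals12 and Grifin were under the filter, with 0 to 6 counts per group of 3 libraries. No gene of the series carried the symbol Lgals6.

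Among genes listed for the recognition and clearance of damaged lysosomes, more were called higher at 14 and 22 h than at 7 h, and none was called lower. Of 16 tested members of a list of 20 (ubiquitin ligases and receptors, the VCP complex and their kinases), 3 were higher at 7 h, 6 at 14 h and 9 at 22 h. Blocked on replicate number the counts were 3, 10 and 10. The shares of all tested genes called higher at these times were 4.57%, 12.1% and 17.9%, and the list's median log2 change was 0.28, 0.46 and 0.69. The autophagy receptor Sqstm1 averaged 3030 ± 176 CPM at 22 h of BafA1 and 501 ± 54.6 CPM in DMSO, with log2 changes of 0.82, 1.96 and 2.60 at 7, 14 and 22 h (adjusted p = 4.43e-05, 2.27e-11 and 1.28e-13). Optn, a receptor for ubiquitinated cargo, averaged 40.3 ± 6.10 CPM at 22 h of BafA1 and 5.86 ± 1.72 CPM in DMSO, with changes of 1.11, 1.90 and 2.84. Tecpr1, a protein of damaged lysosomes and autophagosomes, was at 1.96 by 7 h, then at 1.70 and 1.75. Tax1bp1, a cargo receptor, was called at 14 h (0.46) and 22 h (1.28).

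Genes of lysosome repair were called from 14 h on. Of 19 tested members of 20 (ESCRT subunits, the PI4K2A lipid transfer route and annexins), 0 were called at 7 h, 7 were higher at 14 h and 8 at 22 h, with none lower and medians of 0.04, 0.38 and 0.33. Blocked on replicate number the counts were 1, 10 and 11 higher, and 2 were lower at 22 h. Of all tested genes 12.1% were called higher at 14 h and 17.9% at 22 h. Anxa2, a membrane-binding annexin, averaged 294 ± 15.6 CPM with BafA1 and 131 ± 26.8 CPM in DMSO at 14 h (log2 change 1.16 ± 0.21, adjusted p = 0.000179), and its change at 22 h was 0.70. Osbp, which delivers lipid at membrane contacts, was at 0.78 and 1.06 at 14 and 22 h, the ESCRT-III subunit Chmp3 at 0.43 and 0.87, and Anxa7 at 0.61 and 0.70, all called.

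**Figure D3:**
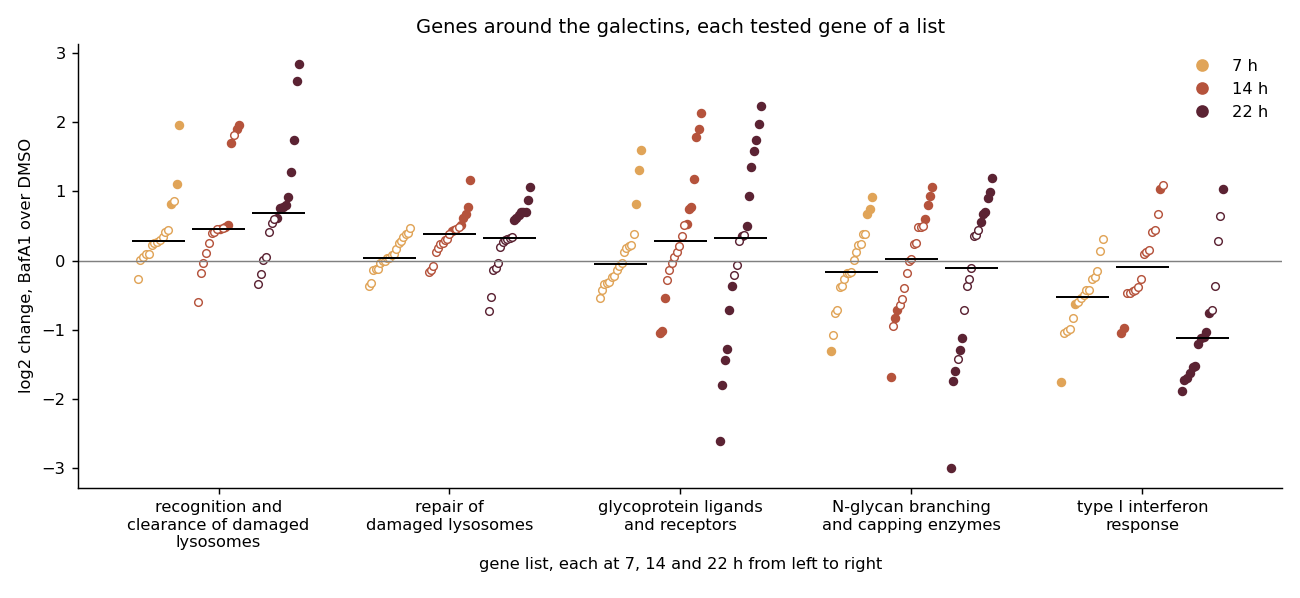
Log2 change, BafA1 over DMSO, of each tested gene in 5 lists at 7, 14 and 22 h. Filled points passed an adjusted p under 0.05, open points did not, and black lines are list medians. Clearance genes lie mostly above 0, with 9 of 16 called higher at 22 h, against 17.9% of all tested genes. Interferon genes lie mostly below 0, with 11 of 16 called lower at 22 h, against 22% of all tested genes.

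The glycoproteins that galectins bind moved both ways. All 18 listed ligands and receptors were tested, and 3 were higher and 0 lower at 7 h, 7 and 3 at 14 h, and 8 and 6 at 22 h. Blocked on replicate number the counts were 4 and 2, 8 and 4, and 9 and 6. Of all tested genes 4.57%, 12.1% and 17.9% were called higher and 2.57%, 12.1% and 22% lower at these times. Tfrc, the transferrin receptor, averaged 225 ± 11.2 CPM at 14 h of BafA1 and 51 ± 5.57 CPM in DMSO, with changes of 1.31, 2.14 and 1.97. Slc3a2, the heavy chain of amino acid transporters, was at 0.82, 1.18 and 1.74, and the glucose transporter Slc2a1 at 1.60, 1.91 and 1.58, all called. Fn1, fibronectin, averaged 117 ± 14 CPM at 22 h of BafA1 and 714 ± 156 CPM in DMSO, a log2 change of -2.61 ± 0.24 (adjusted p = 3.44e-09). Havcr2, the Tim-3 receptor of galectin-9, fell by 1.44 on the log2 scale at 22 h. Itgam and Trem2 in this list are also microglial markers.

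The enzymes that build, cap and trim the galactose-bearing glycans were also split. Of 19 tested members of 20, 3 were higher and 1 lower at 7 h, 4 and 3 at 14 h, and 6 and 5 at 22 h. Blocked on replicate number the counts were 3 and 2, 6 and 3, and 6 and 6. The shares of all tested genes were 4.57%, 12.1% and 17.9% higher and 2.57%, 12.1% and 22% lower, and the lower counts here are near those shares. The branching enzymes Mgat4b (0.68, 0.94 and 0.99 at 7, 14 and 22 h) and Mgat5 (0.75, 0.80 and 0.67) rose at each of these times, as did the lysosomal sialidase Neu1 (0.92, 1.07 and 1.20). St3gal6, a sialyltransferase that caps galactose, fell, with 4.54 ± 1.85 CPM at 22 h of BafA1 and 36.5 ± 3.37 CPM in DMSO (log2 change -2.99 ± 0.43, adjusted p = 4.36e-06).

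Genes of the type I interferon response were mostly lower at 22 h. A link between them and Lgals9, which was also lower at that time, was not tested. Of 16 tested members of 22, 0 were higher and 2 lower at 7 h, 1 and 2 at 14 h, and 1 and 11 at 22 h, where the median was -1.11. Blocked on replicate number the lower counts were 3, 3 and 11. All tested genes were called lower in 2.57%, 12.1% and 22% of cases at 7, 14 and 22 h, and the 14 h count is near that share. Ifitm3, a restriction factor for viral entry, averaged 16.3 ± 5.66 CPM at 22 h of BafA1 and 53.4 ± 6.67 CPM in DMSO (log2 change -1.69 ± 0.32, adjusted p = 0.000153). Ifi27l2a stood at -1.62, and Trim30a at -0.62 at 7 h and -0.76 at 22 h. Bst2, which tethers budding viruses, was the member that rose, by 1.04 at 14 h and 1.03 at 22 h.

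Levels of several cell type markers also differed between BafA1 and DMSO. Markers of microglia, the labelled cell type, were present, with none of 15 at 0 in any library. At 22 h, besides the lower sum with BafA1, 10 of 15 were called lower and 1 higher, at a time when 22% of all tested genes were called lower. Those called lower include P2ry12 (1.28 ± 0.88 CPM with BafA1 and 26.1 ± 7.79 CPM in DMSO) and Tmem119 (1.01 ± 0.21 CPM with BafA1 and 16.4 ± 1.65 CPM in DMSO).

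Markers of the oligodendrocyte lineage and of astrocytes were present as well. At 22 h, when 22% of all tested genes were called lower, 10 of 11 tested markers of the oligodendrocyte lineage were called lower. The 12 markers of this lineage summed to 101 to 132 CPM with BafA1 and 547 to 691 CPM in DMSO. The 11 astrocyte markers summed to 42.9 to 112 CPM with BafA1 and 237 to 385 CPM in DMSO, with 6 of 9 tested called lower (8 blocked on replicate number) and Gjb6 at 0 in every library. The 7 neuronal markers summed to 22.6 to 33.6 CPM with BafA1 and 161 to 224 CPM in DMSO. Only 3 of these 7 had enough counts to test. Over all libraries Map2 averaged 101 CPM and Tubb3 36 CPM, but Rbfox3 1.08 CPM and Snap25 1.18 CPM. The 9 markers of fibroblasts and vessels summed to 8.02 to 56.7 CPM with BafA1 and 18.7 to 83.4 CPM in DMSO, and the 7 of border macrophages to 413 to 639 CPM with BafA1 and 624 to 723 CPM in DMSO. Of these, 4 of 9 and 3 of 7 had enough counts to test. The border macrophage marker Ms4a7 averaged 516 CPM over all libraries, while Cd163 and Lyve1 averaged 0.318 and 0.12 CPM. The neuronal, fibroblast and vessel, and border macrophage sums rest on few markers and do not establish those cell types. At 7 h, when Lgals3 was already higher, the oligodendrocyte markers summed to 344 to 425 CPM with BafA1 and 543 to 682 CPM in DMSO, and the microglial markers to 6230 to 8210 CPM with BafA1 and 7540 to 10300 CPM in DMSO. The part of these shifts in the galectin changes was not tested.

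**Figure D4:**
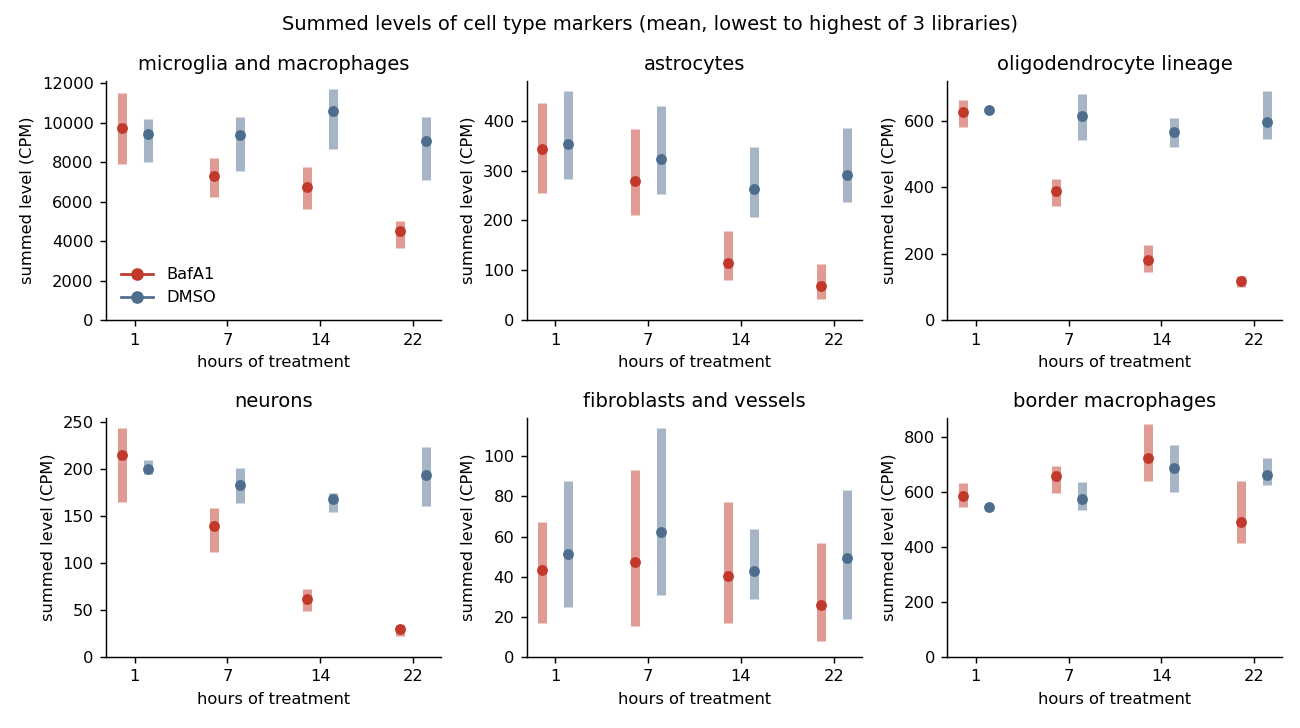
Summed level (CPM) of the markers of each cell type by hours of treatment, BafA1 in red and DMSO in blue. Points are means and bars run from the lowest to the highest of 3 libraries. With BafA1 the microglial sum falls to 3650 to 5020 CPM at 22 h, against 7070 to 10300 CPM in DMSO, and the oligodendrocyte sum to 101 to 132 CPM, against 547 to 691 CPM in DMSO.

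Library totals ran from 1322169 to 4189077 estimated counts. The BafA1 libraries of 14 and 22 h held 2805274 to 4189077 and the DMSO libraries of those times 1332093 to 3056773. In these libraries 3 counts correspond to 0.77 to 2.4 CPM, which covers counting error only.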

How the data were processed

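RNA of 24 primary microglia cultures was read with a QuantSeq 3′ tag kit with unique molecular identifiers, per the labels' protocols. Salmon, without a version, and build GRCm39 are named in the submitters' processing notes, with annotation release and duplicate handling not given in the sources used here. Estimated counts per gene, as deposited by the authors, were rounded before testing (37.1% of values above 0 had a fraction). The deposited log2 CPM table was only compared, and lay within 0.00121 of values recomputed with TMM factors and a prior count of 2. A 3′ tag gives no isoform.

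Genes were kept by edgeR's filterByExpr over the 8 groups, which left 12648; the rest held 0.699% of counts. All 24 libraries were fitted together in edgeR 4.0.16 (R 4.3.3, with limma 3.58.1), with 1 coefficient per group and TMM factors, and tested by quasi-likelihood. Adjusted p is the Benjamini-Hochberg value over all tested genes, with calls under 0.05. DESeq2 1.42.0, limma-voom, other scalings and filters, thinned libraries, a replicate block and each library left out were alternatives.

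The labels give the groups the same replicate numbers. Samples of equal number deviated together from their group means at every time (correlations of 0.14 to 0.34, highest with the own number in every library), so the numbers were taken to pair the samples, and the blocked value stands beside a result of the 5 genes where it changes the call, and beside list counts where it moves them. Replicates differed beyond sampling noise.

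The members, gene lists and markers were chosen with earlier results of these data known. All 5 members are named. Of each list, the up to 4 members called at most times are named, with ties broken by the size of the 22 h change, and up to 2 of each marker list. Havcr2 was named after its values were seen. The 3 genes most like a member were taken by Pearson's r. Promoters are from RefSeq. The fit was tested on simulated data, in which 100 genes of 12355 changed 2-fold and 100 changed 4-fold in each comparison. No effect of replicate number was simulated. The fit called 35% to 45% of genes with a true 2-fold change in the right direction, depending on the time. For a true 4-fold change it called 73% to 84%, so smaller changes can be missed. In the data many more genes were called at 14 h (3054) and 22 h (5050), so these shares need not hold at those times.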

Additional observations from a re-analysis of the deposited data

Results flagged for a closer look

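The BafA1 effect on Lgals3 differed between times, which is why it is listed here. The F test over the 4 times gave F = 37 (edgeR, adjusted p = 3.16e-07), and under 27 alternatives F ran from 33.1 to 112. The effect at 7 h exceeded that at 1 h by 1.44 on the log2 scale (adjusted p = 0.014). Without BafA1 1 h replicate 2, whose Lgals3 level was 621 CPM against 228 and 274 CPM in the other 2 BafA1 libraries of that time, the difference was 2.02 (adjusted p = 4.45e-06), and over all alternatives it ran from 1.20 to 2.02.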

How the results depend on the processing

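Among single genes, 712 values kept their direction and call under the alternatives, 13 gained a call and 10 lost one. Another 45 changed sign, of which 0 were called as reported or under the alternative, and 42 came with a library left out. With a library left out, log2 changes for BafA1 over DMSO at 1 h ran from -0.40 to 0.06 for Lgals1, -0.29 to 0.54 for Lgals3, -0.36 to 0.05 for Lgals3bp and -0.15 to 0.13 for Lgals8, and at 7 h from -0.01 to 0.50 for Lgals1 and -0.14 to 0.28 for Lgals9. The step from 14 to 22 h ran from -0.12 to 0.24 for Lgals1, -0.23 to 0.09 for Lgals3bp and -0.10 to 0.21 for Lgals8. In DMSO against DMSO at 1 h, Lgals3bp ran from -0.22 to 0.16 at 7 h, -0.24 to 0.10 at 14 h and -0.26 to 0.09 at 22 h, Lgals8 from -0.17 to 0.06, -0.11 to 0.14 and -0.09 to 0.16, Lgals9 from -0.20 to 0.08, -0.11 to 0.34 and -0.17 to 0.24, and Lgals3 from -0.13 to 0.03 at 14 h and -0.10 to 0.16 at 22 h. With limma-voom Lgals9 was at -0.02 at 7 h and the step from 14 to 22 h at -0.01 for Lgals8, and with the replicate block Lgals9 was at -0.02 in DMSO at 22 h. With the replicate block, 1555 genes were called at 7 h in place of 903, and 2 galectin genes in place of 1. The block also gave 2 galectin genes for the step from 1 to 7 h, 1 for the step from 7 to 14 h (1 with limma-voom as well) and 4 for treatment by time, and it changed no other call of the 5 genes. Without the filter on low counts 26 genes were called at 1 h. With each library left out in turn, the galectin genes called numbered 1 to 2 at 7 h, 1 to 3 at 14 h (1 without BafA1 14 h replicate 1), 0 to 1 for the step from 7 to 14 h and 1 to 2 for treatment by time, and 573 to 804 genes were called at 7 h in all. Library totals alone gave 1156 higher and 1830 lower calls at 14 h, in place of 1526 and 1528, and 1550 higher and 3485 lower calls at 22 h, in place of 2270 and 2780. The cause of these shifts was not tested. With 3 libraries a group, the Lgals8 changes of 0.25 at 14 h and 0.28 at 22 h were not resolved from no change. Their SE was 0.20, and their 95% intervals began at -0.17 and -0.14.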
